A study of Mus musculus with 20 samples.

Results

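The sarcomeric myosin heavy chains are the motor proteins of the thick filament in striated muscle. They were read in extraocular muscle, which moves the eye, and in leg muscle of mdx and control mice. Members were the probe sets whose platform symbol was Myh1, Myh2, Myh3, Myh4, Myh6, Myh7 or Myh8. They are 7 of the 8221 genes that the annotation names singly and 8 of the 12654 probe sets on the array, 1 for each gene except Myh4, which had 2. The study held 20 one-colour Affymetrix arrays, 5 in each of 4 groups, hybridised with total RNA of mice aged 8 weeks: mdx extraocular muscle (EOM), control EOM, mdx leg muscle and control leg muscle. The mdx mouse models Duchenne muscular dystrophy through a germline nonsense mutation of the dystrophin gene Dmd, and the series title calls its controls wild type without naming a strain. The labels name gastrocnemius and soleus as the source of the control leg arrays and only leg muscle for the mdx ones. They do not say whether the arrays of a group were separate animals, so every p-value measures the spread between arrays, which may be technical.

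Each muscle fibre builds its thick filaments from 1 or a few heavy chain isoforms, and the isoform is a main determinant of how fast the fibre shortens. Embryonic Myh3 and perinatal Myh8 are made in developing fibres and again in regenerating ones, Myh2 (type 2A), Myh1 (type 2X) and Myh4 (type 2B) in adult fast fibres, Myh7 in slow fibres and in the heart ventricle, and Myh6 in the heart. Extraocular muscle is known for keeping developmental and cardiac isoforms in the adult and for a chain of its own, Myh13, which no probe set of the annotation carries and which was not analysed here. In RefSeq's gene table the members lie in 2 tandem clusters, with Myh3, Myh2, Myh1, Myh4, Myh8 and Myh13 in this order on chromosome 11 and Myh6 beside Myh7 on chromosome 14.

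Between EOM and leg muscle of mdx mice, 2 fast and developmental members of the chromosome 11 cluster differed (Myh4 and Myh8, below), as did Myh6 in both genotypes, so the 250 bases before the RefSeq starts of these genes are shown beside those of Myh1, whose differences did not pass (GRCm38.p6, written 5′ to 3′ on the gene's strand). Capitals mark matches on either strand to the E-box (CANNTG), which MyoD-type factors bind, to the MCAT element (CATTCC), to the TATA box (TATAAA) and to the MEF2 consensus.
Myh4, chr11:67237562-67237811, plus strand: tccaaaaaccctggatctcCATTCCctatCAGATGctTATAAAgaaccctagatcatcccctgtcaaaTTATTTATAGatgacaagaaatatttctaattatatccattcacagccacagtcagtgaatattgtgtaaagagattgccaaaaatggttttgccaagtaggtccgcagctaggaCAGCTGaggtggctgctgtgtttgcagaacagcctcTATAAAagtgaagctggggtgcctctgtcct
Myh8, chr11:67276874-67277123, plus strand: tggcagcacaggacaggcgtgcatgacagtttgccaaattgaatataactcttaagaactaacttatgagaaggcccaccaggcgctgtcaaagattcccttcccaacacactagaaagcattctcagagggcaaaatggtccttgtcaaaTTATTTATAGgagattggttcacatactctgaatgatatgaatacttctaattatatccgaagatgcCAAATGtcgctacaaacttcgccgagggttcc
Myh1, chr11:67199852-67200101, plus strand: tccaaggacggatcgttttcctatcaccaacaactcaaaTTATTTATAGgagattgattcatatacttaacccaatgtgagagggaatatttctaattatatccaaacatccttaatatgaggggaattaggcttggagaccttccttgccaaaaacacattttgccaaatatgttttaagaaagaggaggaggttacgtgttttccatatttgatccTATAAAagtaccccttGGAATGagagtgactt
Myh6, chr14:54966608-54966857, minus strand: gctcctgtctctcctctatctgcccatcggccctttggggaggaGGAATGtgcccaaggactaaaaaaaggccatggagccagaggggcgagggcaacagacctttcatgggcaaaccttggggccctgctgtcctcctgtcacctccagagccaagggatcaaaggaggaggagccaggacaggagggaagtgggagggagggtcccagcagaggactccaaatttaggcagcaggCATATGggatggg
The MEF2 consensus was matched in the windows of Myh4, Myh8 and Myh1, starting at position -182, -99 and -211 from the gene start, and in 0 of the other 5 member windows (Myh7 has 2). In each of the 3 it is the same run of 10 letters, TTATTTATAG, and it holds a TATA match on the opposite strand, so those letters are counted under both motifs. Of 32851 RefSeq windows of this length 2.92% held a MEF2 match, 66.2% an E-box, 12.6% an MCAT element and 12.4% a TATA box. Among the 8 member windows 3, 6, 4 and 4 held them. The 2 Myh7 windows overlap and share an E-box match, so they are not separate promoters. A match describes letters only.

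Signals below are array intensities after each array was scaled to a trimmed mean of 500, given as means ± SD of 5 arrays. Differences are on the log2 scale after values under a floor of 50 were set to it, and a probe set was tested when it reached 200 on at least 5 arrays. A gene passed at a Benjamini-Hochberg adjusted p under 5% over all 7204 tested probe sets, in limma's fit to the 4 groups. Of the 8 member probe sets 6 were tested; Myh2 reached 200 on 0 arrays and Myh6 on 2. Levels of different probe sets cannot be set against each other, and in whole muscle fewer fibres of a type and less RNA per fibre cannot be told apart.

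Dmd, read as a check of the labels, was at 119 ± 31.7 in mdx EOM and 268 ± 47.4 in control EOM, with arrays that did not overlap. In leg muscle it was at 77.5 ± 32.3 in mdx and 149 ± 40.2 in control arrays, which overlapped. Of the limb position genes Hoxd8 was at 56.1 to 218 on mdx EOM and 504 to 868 on mdx leg arrays, and at 166 to 212 on control EOM and 737 to 1416 on 4 of the control leg arrays. Of the 4 tested genes of that list Hoxd8 passed as lower in EOM in both genotypes, and Pitx1 passed as higher, at 722 to 1075 on mdx EOM and 360 to 603 on mdx leg arrays. The array labelled leg control 4 was at odds with its label for some markers, with Hoxd8 at 94.9 and the salivary protein gene Bpifa2 at 8892, against 3030 to 4634 on EOM arrays. For others it fell on the leg side, with Myom2 at 1960, Pvalb at 15888 and Gpd1 at 4953, against at most 255, 6280 and 1888 on EOM arrays, and the nerve marker Pmp22 at 1380, against at least 3912 on EOM arrays. The array labelled leg control 1 followed its own group least well (mean correlation 0.892), and its 11 slow fibre genes and 12 fast fibre genes summed to 115806 and 159075. On the leg control arrays other than 1 and 4 the slow sum was 51692 to 53295, and on leg control 4 it was 21833. Values without both arrays are given below where leaving them out changed a call or a count stated there, or moved a stated difference of a tested member by over 1.5 times. Results not stated below moved too. For Myh7 the mdx effect in leg muscle minus that in EOM was -0.20, and -0.52 without both arrays. The leg difference of Myh4 96371_f_at was -0.22 and -0.11. Without both arrays Hoxd9 and Mybph also passed as lower in control EOM than in control leg muscle, and Myh9 lost its call for the difference of effects. The mdx and control arrays carry different description labels, so any batch of hybridisation cannot be told apart from genotype.

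**Figure D1:**
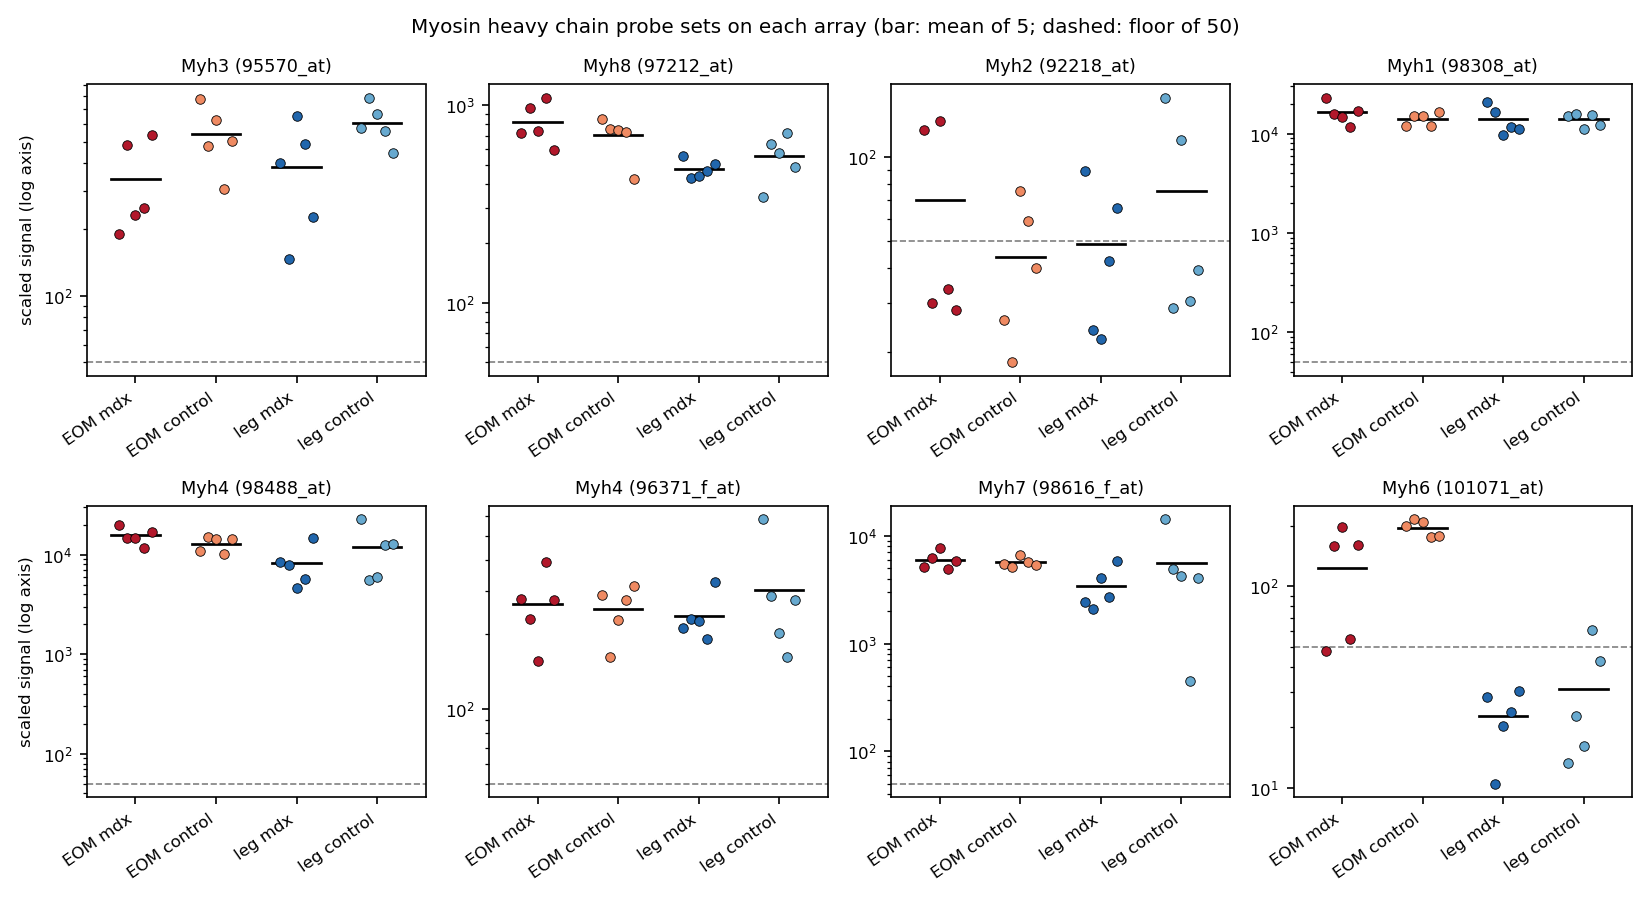
Scaled signal (log axis) of each of the 8 myosin heavy chain probe sets on each array, with mdx before control and EOM before leg; each point is 1 array, bars are means of 5 and the dashed line is the floor of 50. Myh8 separates mdx EOM from mdx leg arrays and Myh6 control EOM from control leg arrays, while the single low Myh7 point at 445 is the array labelled leg control 4.

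Embryonic Myh3 was lower on average in mdx than in control muscle of both kinds, without passing the test in either. Its signal on mdx EOM arrays was 190, 482, 233, 250 and 533, against 779, 479, 629, 306 and 504 on control EOM arrays. On mdx leg arrays it was 400, 147, 653, 487 and 228, against 579, 789, 665, 557 and 446 on control leg arrays. The groups overlapped in both muscles, and the mdx arrays were spread the widest in leg muscle, where the highest was 4.44 times the lowest. The log2 difference in leg muscle was -0.83 (95% interval -1.56 to -0.09, limma adjusted p = 0.116, unadjusted 0.0288). It passed only without leg mdx 3, the array with the highest mdx value (log2 difference -1.07, limma adjusted p = 0.0453). In EOM it was -0.73 (95% interval -1.47 to 0.00, limma adjusted p = 0.958). Between EOM and leg the log2 difference was -0.12 in mdx and -0.21 in control mice, with limma adjusted p of 0.872 and 0.755.

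Perinatal Myh8 was higher in EOM than in leg muscle of mdx mice. Its signal on mdx EOM arrays was 723, 970, 740, 1088 and 592, against 553, 427, 438, 466 and 502 on mdx leg arrays. All 5 EOM arrays lay above all 5 leg arrays. The means were 823 ± 201 in mdx EOM and 477 ± 51.2 in mdx leg muscle, a 1.69-fold difference (log2 difference 0.76, SE 0.21, 95% interval 0.32 to 1.19, limma adjusted p = 0.0137). Leaving out any 1 of the 10 arrays kept the call, with an adjusted p of up to 0.0458. In control mice the signal was 846, 758, 749, 732 and 421 on EOM arrays, against 341, 638, 569, 724 and 487 on leg arrays. These groups overlapped through EOM control 5, which lay below 4 of the 5 leg arrays (log2 difference 0.35, 95% interval -0.08 to 0.79, limma adjusted p = 0.284). The gap between muscles was not shown to differ between genotypes: mdx minus control was -0.17 in leg muscle and 0.23 in EOM, and the difference of these effects was -0.40 (95% interval -1.02 to 0.21, limma adjusted p = 0.526).

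Among the adult fast chains, Myh2 of type 2A fibres was near the bottom of the scale. Its signal was at most 135 on mdx EOM, 75.5 on control EOM, 89.4 on mdx leg and 163 on control leg arrays, and 3 of 5 arrays in each group lay under the floor. It has no level that these arrays could compare. In the fit without a filter its log2 differences lay between -0.42 and 0.38, and the limma adjusted p of all 4 pairs of groups was at least 0.608.

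Myh1 of type 2X fibres was bright in all 4 groups and passed in no comparison. Its signal was 22949, 15600, 14850, 11730 and 16984 on mdx EOM arrays, against 11963, 14896, 14904, 11916 and 16378 on control EOM arrays. On mdx leg arrays it was 20693, 16610, 9786, 11548 and 11226, against 14940, 15723, 11088, 15434 and 12307 on control leg arrays. Every group overlapped every other, and the mdx groups spread more, with an SD of 4125 against 1985 in EOM and 4557 against 2074 in leg muscle. Mdx minus control was 0.21 in EOM (95% interval -0.20 to 0.62, limma adjusted p = 0.999) and -0.04 in leg muscle (95% interval -0.45 to 0.37, limma adjusted p = 0.926). EOM minus leg was 0.26 in mdx mice (95% interval -0.15 to 0.66, limma adjusted p = 0.428) and 0.01 in controls (95% interval -0.40 to 0.42, limma adjusted p = 0.975). The leg difference turned to 0.22 under quantile normalization and to 0.06 without leg controls 1 and 4, where the EOM minus leg difference in controls was 0.11 (limma adjusted p = 0.909 and 0.826).

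Myh4 of type 2B fibres, the fastest, was higher in EOM than in leg muscle of mdx mice by 1 of its 2 probe sets. On 98488_at the signal was 20073, 14600, 14806, 11742 and 16856 on mdx EOM arrays, against 8480, 7849, 4642, 5652 and 14808 on mdx leg arrays. The groups overlapped through leg mdx 5, whose value lay above 3 of the EOM arrays. The means were 15615 ± 3086 in mdx EOM and 8286 ± 3968 in mdx leg muscle, 2.01-fold apart (log2 difference 1.01, SE 0.32, 95% interval 0.35 to 1.67, limma adjusted p = 0.0293). The call ended in 4 of the 10 fits on 1 array fewer, where the adjusted p was 0.0726 without EOM mdx 1, 0.0567 without EOM mdx 5, 0.0921 without leg mdx 3 and 0.0796 without leg mdx 4. It also ended with no filter on dim probe sets (0.0826).

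In control mice the same probe set was at 10912, 14944, 14361, 10186 and 14296 in EOM, against 22731, 5613, 5980, 12604 and 12763 in leg muscle. Leg control 1 was the highest of all 20 arrays and leg controls 2 and 3 were among the lowest, so the EOM values lay inside the leg range (log2 difference 0.29, 95% interval -0.36 to 0.95, limma adjusted p = 0.599). Without leg controls 1 and 4 the difference was 0.76 (95% interval 0.13 to 1.39, limma adjusted p = 0.101), and the groups overlapped through leg control 5 alone. Mdx minus control was 0.27 in EOM and -0.45 in leg muscle (limma adjusted p = 0.999 and 0.375). The leg difference was 0.02 without leg controls 1 and 4. The difference of these effects did not pass (-0.72, 95% interval -1.65 to 0.22, limma adjusted p = 0.439), and it was -0.25 without both arrays (95% interval -1.09 to 0.59, limma adjusted p = 0.821). The other probe set, 96371_f_at, has probes that match several genes of a family. It averaged 266 ± 85.8 in mdx EOM, 253 ± 59.5 in control EOM, 237 ± 51.7 in mdx leg and 301 ± 165 in control leg muscle, passed in no comparison and followed 98488_at weakly (r of 0.36 between deviations from the group means, 20 arrays). Its mdx EOM minus leg difference was 0.13 (95% interval -0.50 to 0.75), so the 2 probe sets of Myh4 disagree about that call.

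Myh7, the slow chain, was steady in EOM and scattered in leg muscle. Its probe set is also of the family-shared kind. The signal was 5104, 6250, 7676, 4940 and 5837 on mdx EOM arrays, against 5487, 5178, 6583, 5678 and 5413 on control EOM arrays. On mdx leg arrays it was 2433, 2108, 4099, 2689 and 5779, against 14239, 4896, 4240, 445 and 4040 on control leg arrays. The coefficient of variation was 18.4% in mdx EOM, 9.56% in control EOM, 44.5% in mdx leg and 92.4% in control leg muscle, where the highest array was 32.0 times the lowest.

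The Myh7 extremes are the arrays labelled leg control 1 and 4, and on leg control 4 the slow light chains Myl2 and Myl3 and the slow troponin Tnnc1 were at 45.2, 22.0 and 28.6. EOM minus leg was 0.89 in mdx mice (95% interval -0.22 to 1.99, limma adjusted p = 0.288), with 4 of the 5 leg arrays below all 5 EOM arrays. The spread in this test is shared with the control arrays. With only the 2 mdx groups in the fit the adjusted p was 0.0204, and without leg controls 1 and 4 it was 0.00363, at the same difference. In control mice EOM minus leg was 0.69 (limma adjusted p = 0.432), and it was -0.06 without leg control 4, 1.19 without leg control 1 and 0.37 without both. Mdx minus control was 0.06 in EOM (95% interval -1.04 to 1.16) and -0.14 in leg muscle (95% interval -1.24 to 0.96). Through the shared spread the EOM interval was -0.37 to 0.49 without leg controls 1 and 4, at the same difference. The leg value moved to -0.89 without leg control 4 (limma adjusted p = 0.0516), to 0.36 without leg control 1 and to -0.46 without both (95% interval -0.95 to 0.03, limma adjusted p = 0.225).

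Myh6, the alpha chain of the heart, was higher in EOM than in leg muscle in both genotypes. Its signal was 47.6, 159, 197, 54.6 and 160 on mdx EOM arrays, against 28.4, 10.5, 20.4, 23.9 and 30.4 on mdx leg arrays. In control mice it was 200, 215, 210, 177 and 178 on EOM arrays, against 13.4, 22.7, 16.1, 60.6 and 42.5 on leg arrays. Control EOM lay above control leg muscle without overlap. In mdx mice 4 of 5 EOM arrays were above the floor and all 5 leg arrays under it, where values have no order, and 9 of the 10 leg arrays of both genotypes were under the floor. Since Myh6 did not pass the filter, its test comes from the fit to all 12588 non-control probe sets. There it was at least 3.76-fold higher in control EOM (log2 difference 1.91, 95% interval 1.28 to 2.54, limma adjusted p = 0.000383) and at least 2.13-fold higher in mdx EOM (log2 difference 1.09, 95% interval 0.46 to 1.72, limma adjusted p = 0.0251). That fit called 9.06% of all probe sets between the control muscles and 9.98% between the mdx muscles.

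The size of the Myh6 bound follows the floor: with floors of 20 and 100 the log2 difference was 2.71 and 0.97 in control and 2.12 and 0.47 in mdx mice, all with an adjusted p under 5%. The control call held in 10 of 10 fits without 1 array. The mdx call ended without EOM mdx 2, 3 or 5 (limma adjusted p = 0.0711, 0.0684 and 0.0674). On mdx EOM arrays 1 and 4 the signal was near the floor, whereas all 5 control EOM arrays were at 177 or more. Mdx minus control in EOM was -0.87 (95% interval -1.50 to -0.25) and did not pass over all probe sets (limma adjusted p = 0.953). The atrial light chain Myl7 was at 20.6 to 74.7 on all 20 arrays. A list of 6 cardiac genes, not all of them particular to the atrium, held Myl7, Nppa, Sln, Nppb, Tnni3 and Gata4. They summed to 1489 to 2007 in mdx EOM, 2044 to 2191 in control EOM, 1231 to 1870 in mdx leg and 1171 to 2126 in control leg muscle. Of the 5 tested 0 passed between muscles in either genotype.

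**Figure D2:**
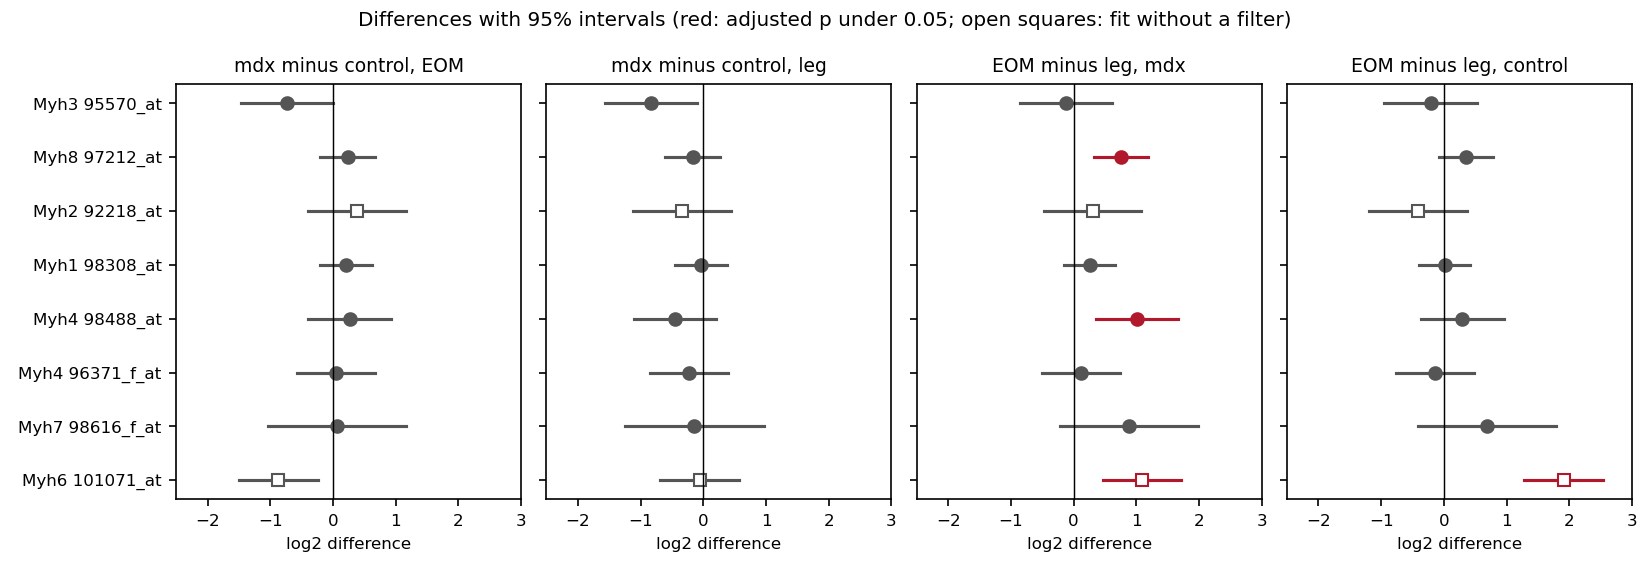
Log2 difference and 95% interval of each myosin heavy chain probe set in 4 comparisons; the top row is Myh3 and the bottom row Myh6, red marks an adjusted p under 5%, and open squares come from the fit without a filter because the probe set was too dim. Red appears between EOM and leg muscle only: Myh8, Myh4 (98488_at) and Myh6 in mdx mice, at 0.76, 1.01 and 1.09, and Myh6 in control mice, at 1.91.

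The counts of members that passed are set here against all tested probe sets. In leg muscle 0 of the 6 tested member probe sets passed between mdx and control (1 at an unadjusted p under 5%), where 17.9% of all tested probe sets did. In EOM 0 of 6 passed (0 unadjusted), where 0.0833% did, and for the difference of the 2 effects 0 of 6 passed (0 unadjusted), where 6.22% did. The median log2 difference of the 6 was -0.20 in leg muscle and 0.13 in EOM, beside -0.06 and -0.02 over all tested probe sets. Between control EOM and control leg muscle 0 of 6 passed (0 unadjusted), where 17.7% did, and 0 of 6 had groups that did not overlap, where 13.5% did. In mdx mice 2 of 6 passed (2 unadjusted), both higher in EOM, where 18.1% of all probe sets passed and 9.24% passed as higher. One of the 6 had groups that did not overlap, where 14.4% did. Without leg controls 1 and 4 the mdx count was 3 of 6, with Myh7 added, where 20.5% passed, and the other 4 counts stayed at 0.

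Markers of other cell types also differed between the muscles. Of all tested probe sets 9.24% passed as higher and 8.83% as lower in mdx EOM than in mdx leg muscle. Between the control muscles these shares were 10.3% and 7.41%. The 10 macrophage markers summed to 6485 to 12347 in mdx EOM, 5992 to 8448 in control EOM, 33229 to 41758 in mdx leg and 3587 to 5463 in control leg muscle. All 10 passed as lower in mdx EOM than in mdx leg muscle. Of 5 smooth muscle markers 4 were higher in mdx EOM, with sums of 7020 to 10314 against 3070 to 4307 in mdx leg muscle, as were 3 of 3 tested nerve markers, with sums over 4 genes of 6472 to 7695 against 1381 to 2561. Endothelial markers were higher for 3 of 5, with sums of 2315 to 3776 in mdx EOM and 1845 to 2276 in mdx leg muscle, and gland markers for 4 of 5 tested, with sums over 8 genes of 6135 to 7806 and 1736 to 2298. Both tested red blood cell markers, Hba-a1 and Alas2, were higher in mdx EOM, with sums of 9392 to 17193 against 4489 to 10794 in mdx leg muscle. In control mice 4 of 5 smooth muscle markers were higher in EOM, with sums of 5359 to 7918 against 1760 to 4123 in control leg muscle, as were 3 of 3 nerve markers, with sums of 6768 to 8948 against 1107 to 2617, and 3 of 10 macrophage markers (2 without leg controls 1 and 4). There 0 of 5 endothelial and 0 of 2 red blood cell markers passed. Of 5 tested gland markers 1 was higher in control EOM (2 without both arrays, with Amy1). Of 4 tested adipocyte markers 0 passed between the muscles in either genotype. The lowest deposited intensity of any probe set was 0.4, so a marker never listed at 0 does not show that its cells were present. Some markers fell under the floor, with lowest signals of 19.9 for Cnn1 in mdx leg and 38.6 for Adgre1 in control leg muscle. The part of these cells in the Myh4, Myh6 and Myh8 differences was not tested.

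Fibre type partners of the heavy chains were read as lists, chosen like the members with earlier results of these data known. Their counts stand beside the shares of all tested probe sets. In mdx leg muscle 10.7% passed as higher and 7.15% as lower than in control, and 4.93% as higher for the difference of effects. In EOM against leg muscle 10.3% passed as higher and 7.41% as lower in control mice, and 9.24% and 8.83% in mdx mice. Without leg controls 1 and 4 the shares that passed were 13.3%, 5.05%, 15% and 20.5% in these 4 comparisons. Between mdx and control leg muscle 0 of 11 slow fibre genes passed (without leg controls 1 and 4, 0 rose and 2 fell, Myl2 and Myl3) and 2 of 11 fast fibre genes fell. These were Pfkm, the muscle phosphofructokinase (1.48-fold, limma adjusted p = 0.015), and Gpd1, a glycerol phosphate dehydrogenase (1.40-fold, limma adjusted p = 0.0205). Pfkm did not pass without both arrays (limma adjusted p = 0.0686). Of 17 developmental and cardiac genes 8 rose and 1 fell in mdx leg muscle, while the developmental members Myh3 and Myh8 did not pass. Without both arrays 6 rose and 0 fell, since Myl4, Chrnd and Vim no longer passed (limma adjusted p = 0.0573, 0.0794 and 0.055). The cardiac troponin gene Tnnt2 was at 752 ± 113 in mdx and 160 ± 22.8 in control leg muscle, 4.69-fold apart (limma adjusted p = 2.88e-09). Chrna1, a subunit of the acetylcholine receptor, was 4.32-fold higher, the stress-response gene Ankrd1 11.5-fold and the intermediate filament gene Nes 1.89-fold. The 10 macrophage markers all rose in the same comparison, and their part in these list counts was not tested.

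Among thick filament genes 2 of 7 rose in mdx leg muscle and 1 fell. The chaperone Hsp90aa1, which helps fold myosin, was 2.49-fold higher (limma adjusted p = 0.000432), and the thick filament protein Mybph was 2.29-fold higher. Smyd1, a methyltransferase needed for sarcomere assembly in zebrafish, was 1.69-fold lower (limma adjusted p = 0.00544). Of 12 regulators of fibre type 2 fell: Rcan1, a calcineurin regulator, and the homeobox gene Six4, 1.54-fold and 1.70-fold. In EOM 0 of the genes on these 4 lists, on the slow fibre list and among the non-muscle myosins passed between mdx and control arrays, and without both arrays Ankrd1 passed as higher in mdx EOM (limma adjusted p = 0.0362). For the difference of the 2 effects 5 of 17 developmental and cardiac genes passed, all higher in leg muscle, among them Tnnt2 (1.93 on the log2 scale, limma adjusted p = 1.67e-05), and 4 passed without both arrays, where Nes did not (limma adjusted p = 0.0615).

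Between EOM and leg muscle of control mice, 2 of 11 slow fibre genes were higher in EOM: Casq2, the cardiac and slow calsequestrin (2.09-fold), and the slow troponin Tnnt1 (1.69-fold). Without leg controls 1 and 4 the slow count was 4 higher and 1 lower, with Tnni1 and Tnnc1 added as higher and Myl3 as lower. Of 11 fast fibre genes Mylpf, a fast light chain, was higher, and Gpd1, Pvalb and Myoz1 were lower. Pvalb, the calcium buffer parvalbumin of fast fibres, averaged 5951 ± 334 in control EOM and 16578 ± 2563 in control leg muscle (limma adjusted p = 2.73e-08). The M-band gene Myom2 was at 39.9 ± 33.0 in control EOM, with 4 of 5 arrays under the floor, and 2606 ± 561 in control leg muscle, at least 44.9-fold lower (limma adjusted p = 2.36e-12). Chrna1 was 6.03-fold higher in control EOM and Myl6b, a myosin light chain, 2.71-fold, among 4 of 17 developmental and cardiac genes that were higher. In that list 0 were lower (1 without both arrays, Chrng). Of the regulators the T-box factor Tbx15 and the coactivator Ppargc1a were higher and Rcan1 lower, and Ppargc1a did not pass without both arrays (limma adjusted p = 0.0602).

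In mdx mice Mb (myoglobin) and Tpm3 were higher in EOM among slow fibre genes, and without leg controls 1 and 4 the count was 5 higher and 2 lower (Tnnt1, Tnni1 and Tnnc1 added as higher, Myl3 and Atp2a2 as lower). Of the fast fibre genes Gpd1, Pvalb, Actn3 and Myoz1 were lower in EOM and Casq1, the fast calsequestrin, was higher, as were 3 without both arrays, where Myl1 and Atp2a1 joined it (limma adjusted p = 0.0487 and 0.0281). Casq1 averaged 14529 ± 3676 in mdx EOM and 4964 ± 3790 in mdx leg muscle (3.59-fold, limma adjusted p = 0.0129). That is the direction of Myh4, while the 4 fast fibre genes that were lower in EOM went the other way. Of 17 developmental and cardiac genes 4 were higher and 6 lower in mdx EOM (7 lower without both arrays, with Myl4). Ankrd1 was 5.73-fold lower there and Chrng, the fetal acetylcholine receptor subunit, 5.13-fold lower, while Myl6b was 2.47-fold higher. Myom2 averaged 149 ± 69.8 in mdx EOM and 2584 ± 625 in mdx leg muscle, 18.5-fold lower in EOM.

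Of the myosin heavy chains outside the sarcomere, 3 genes were tested. The smooth muscle chain Myh11 averaged 1831 ± 297 in mdx EOM and 287 ± 82.4 in mdx leg muscle, and 1307 ± 404 in control EOM and 264 ± 129 in control leg muscle (6.50-fold and 5.60-fold). Myh14, a non-muscle chain, was 1.94-fold higher in EOM in mdx and 1.58-fold higher in control mice. Myh9, a non-muscle chain of many cell types, was at 2005 ± 531 in mdx and 1112 ± 224 in control leg muscle (1.78-fold, limma adjusted p = 0.000829) and 1.64-fold lower in mdx EOM than in mdx leg muscle.

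For each tested member gene, the 3 probe sets whose log2 values followed its own most closely over the 20 arrays were named among 6256 candidates, with the correlation of deviations from the group means beside it. These are descriptions: the arrays share groups, they may differ in RNA quality, which was not measured here, and the highest of many correlations is high by choice. Myh7 was followed by slow fibre genes, the troponins Tnnc1 (r of 0.93, within groups 0.95) and Tnni1 (0.89 and 0.91) and the light chain Myl2 (0.90 and 0.93). Without leg controls 1 and 4 these were 0.80, 0.61 and 0.68 over 18 arrays, so part of the likeness rests on those arrays. Myh4 was followed by Ldha, the muscle lactate dehydrogenase subunit (0.97 and 0.97), the muscle enolase Eno3 (0.94 and 0.94) and Casq1 (0.93 and 0.90), and without both arrays by 0.97, 0.93 and 0.97.

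Ldha averaged 12859 ± 3212 in mdx EOM, 11285 ± 2200 in control EOM, 5354 ± 3068 in mdx leg and 8823 ± 7648 in control leg muscle, with leg control 1 at 21288 and leg control 2 at 1999. Like Myh4 it was thus lowest on average in mdx leg muscle and most scattered in control leg muscle. Myh8 was followed by the chloride transporter gene Clcn4 (0.85, within groups 0.71) and by Tie1 and Sox17, which are known in endothelium (0.84 and 0.76, 0.83 and 0.73). Myh1 reached at most 0.76 (Wdr54) and Myh3 at most 0.73 (Mtmr1). Between the members' own probe sets the correlations of deviations from the group means ran from -0.47 (Myh7 and Myh8) to 0.59 (Myh7 and the 96371_f_at probe set of Myh4, both of the family-shared kind).

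**Figure D3:**
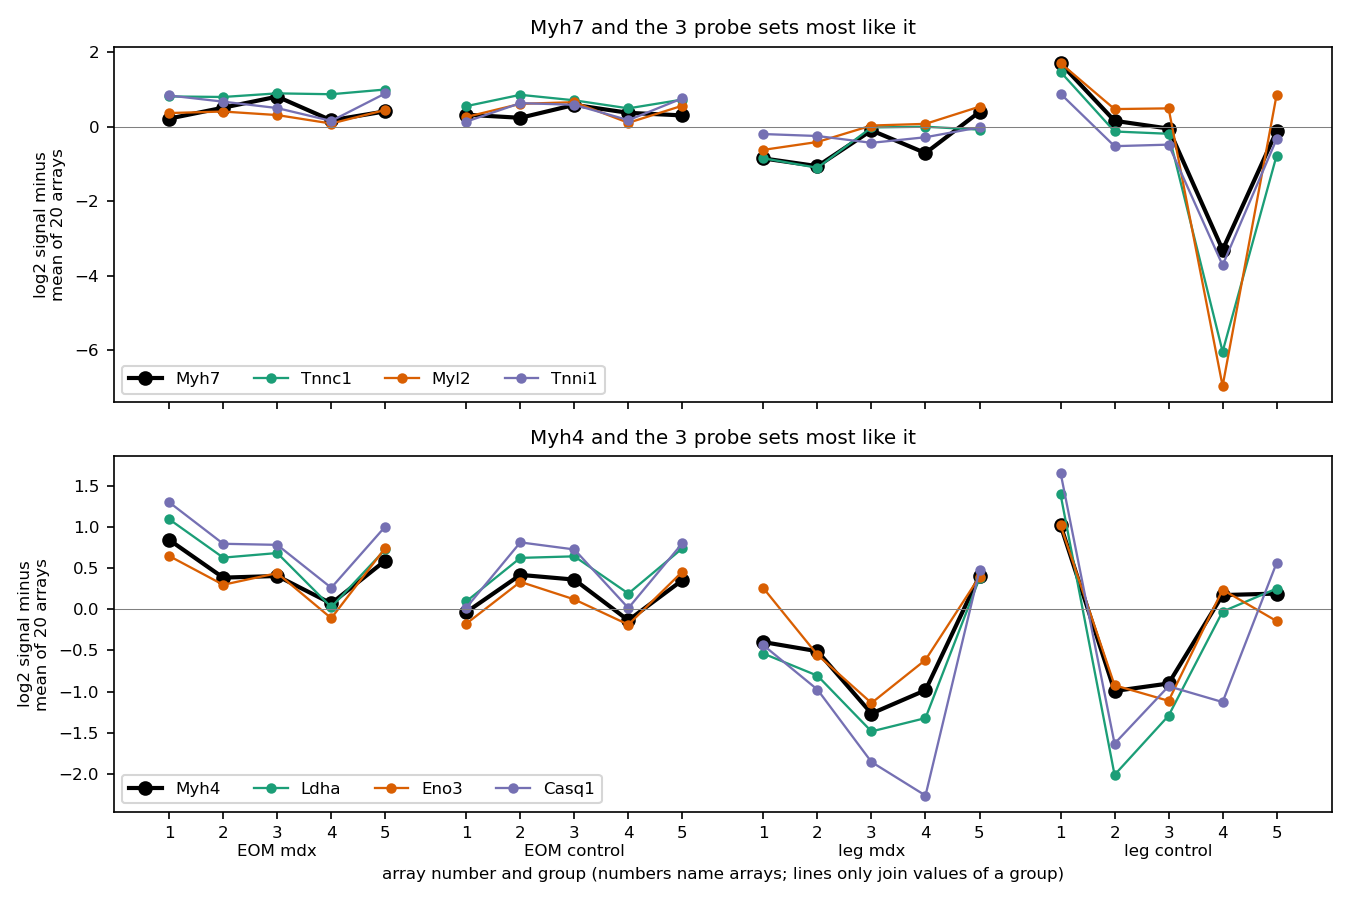
Log2 signal on each array minus the mean of 20 arrays, for Myh7 (top) and the 98488_at probe set of Myh4 (bottom), each in black with the 3 probe sets most like it; the horizontal axis gives array numbers within each group, from mdx EOM to control leg, and lines only join values of a group. All 4 slow fibre genes are lowest on leg control 4; Myh7, Tnnc1 and Myl2 are highest on leg control 1 and Tnni1 on mdx EOM 5. In the bottom panel the gap to Myh4 passes 1 log2 unit for Ldha on leg control 2 (-2.01 against -0.99) and for Casq1 on leg mdx 4 (-2.27 against -0.98) and leg control 4 (-1.13 against 0.17).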

How the data were processed

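One-colour Affymetrix arrays carried total RNA of mdx and control EOM and leg muscle, 5 for each group, and groups were taken from sample titles. The authors deposited 1 linear intensity per probe set and array (0.4 to 95476.8), scaled to a 2% trimmed mean of 1500.1 on each array. Which software summarised the probes is not stated in the labels, which name the maker's standard protocol for the mdx arrays alone. No detection calls were among the files used, so background is set by the floor alone.

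Each array was rescaled to a 2% trimmed mean of 500 over the 12588 non-control probe sets (66 controls left out), values under 50 were set to 50, and log2 was taken. Tests covered the 7204 probe sets with 200 or more on 5 or more arrays, in limma 3.58.1 under R 4.3.3 (lmFit, eBayes with an intensity trend, 20 arrays in 4 groups, 16 residual degrees of freedom, no covariate). The 5 contrasts were mdx minus control by muscle, the leg effect minus the EOM effect, and EOM minus leg by genotype, with Benjamini-Hochberg adjustment over all probe sets within each. The script was tested on simulated data. A fold is "at least" where the dimmer group had arrays under the floor.

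All member probe sets are named, with up to 4 passing genes per list and contrast by smallest adjusted p and the 3 probe sets most like each member. Members, lists and the rule were chosen with earlier results of these data known. Lists represent each gene by its brightest tested probe set. The platform annotation gave 1 symbol to 10298 probe sets, several to 363 (0 of them hold a member) and none to 1993. It is of an early array design, some of whose probe sets the maker later withdrew, so a probe set may not measure its gene. Replicate numbers do not pair the arrays. Alternatives changed the scaling (as deposited, or quantile normalization), the floor (20, 100, or a pseudocount of 50 instead), the filter (none, or 500), the trend and the array weights. Others fitted the compared groups alone, added a replicate block, or left out each array in turn or leg controls 1 and 4 together. The number of arrays limits the precision.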

Additional observations from a re-analysis of the deposited data

Results flagged for a closer look

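Among 32 groups of 5 values, 8 probe sets in 4 groups, 2 held a value set far apart from the other 4; chance alone flags about 5% of groups. Myh6 was at 60.6 on leg control 4, while the other control leg arrays, at 13.4 to 42.5, all lay under the floor and so have no order on the log2 scale. Myh8 was at 421 on EOM control 5, while the other control EOM arrays lay between 732 and 846.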

How the results depend on the processing

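Counts here cover the 6 tested member probe sets. Between mdx and control EOM, between the control muscles and for the difference of effects they were 0 under every alternative run. Myh6, which is not among the 6, passed between the muscles in both genotypes with no filter (limma adjusted p = 0.000383 in control and 0.0251 in mdx mice). Between the mdx muscles the count of 2 became 1 with no filter, where 12588 probe sets share the adjustment, 3 with only the compared groups in the fit or without leg controls 1 and 4, and ranged from 1 to 2 without 1 array; between mdx and control leg muscle it ranged from 0 to 1. Myh8 in the mdx muscles passed in 12 of 12 other settings and Myh4 (98488_at) in 11 of 12. Of 879 values under an alternative, 826 kept their direction and side of the threshold, 8 lost the call, 3 gained it, 6 counts moved and 36 turned sign, all of them of values that did not pass; the cause was not tested. Turned outside the fits without 1 array were Myh1 in leg muscle (0.22 with quantile normalization, 0.017 with array weights, 0.058 without leg controls 1 and 4), its difference of effects (0.16 with quantile normalization) and Myh4 98488_at in leg muscle (0.017 without leg controls 1 and 4). Without 1 array, EOM minus leg in control mice ran from -0.065 to 0.069 for Myh1, -0.33 to 0.13 for Myh4 96371_f_at and -0.058 to 1.19 for Myh7, and in mdx mice from -0.41 to 0.12 for Myh3 and -0.030 to 0.30 for Myh4 96371_f_at. Mdx minus control ran in leg muscle from -0.19 to 0.078 for Myh1, -0.41 to 0.051 for Myh4 96371_f_at and -0.89 to 0.36 for Myh7, and in EOM from -0.11 to 0.22 for Myh4 96371_f_at and -0.036 to 0.12 for Myh7. The difference of effects ran from -0.34 to 0.20 for Myh3, -0.45 to 0.0068 for Myh4 96371_f_at and -0.94 to 0.31 for Myh7. A replicate block gave 1351, 7, 458, 1351 and 1386 calls in the 5 contrasts, against 1287, 6, 448, 1275 and 1302 without it, and 0, 0, 0, 0 and 2 member calls, as without it. The numbers do not pair the arrays: deviations of same-numbered mdx and control arrays correlated at 0.01 to 0.18 in leg muscle and 0.02 to 0.23 in EOM, those of EOM and leg at -0.01 to 0.05 in control and -0.08 to 0.08 in mdx mice, and 3, 2, 1 and 1 of 5 correlated best with their own number. Myh2 and Myh6, near the floor, are limited by signal over background, and leg control 1 and 4 limit every Myh7 comparison in the fit to 4 groups. Where control leg muscle is not compared, they do so through the shared spread. Fitting only the groups compared has no value for the difference of effects, which uses all 4 groups, nor the filter at 500 for Myh4 96371_f_at, which did not reach it. The Myh6 alternatives were chosen after seeing the data.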
